A study of Ovis aries with 9 samples.

Results

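Stromal and smooth muscle genes were followed in cultured sheep granulosa cells (GCs), which line the ovarian follicle and feed the egg. The genes were chosen by symbol: PDGFRA, PDGFRB, ACTA2, TAGLN, CNN1, MYL9, VIM, DCN, LUM and THY1. All 10 were present among the 39157 genes of the expression table, of which 17076 carry a symbol, and each had 1 entry. The label under which they are grouped, markers of stroma and smooth muscle in culture, was given to them for what they mark elsewhere and not for how they behaved here.

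The RNA came from GCs of thin-tailed Han ewes aged 1 year or slightly more, collected at slaughter from follicles of 3 to 5 mm. The cells were cultured for 48 h with 10% fetal bovine serum, held for 8 h without glucose and serum, and then treated for 24 h. The control group (CON) received 0 mM glucose, the LOW group 8.4 mM and the HIGH group 33.6 mM, with 3 libraries each. These were primary cells pooled from many ovaries before culture, so the libraries of a group are not separate animals. P-values therefore measure the spread between these libraries, which may be technical.

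PDGFRA and PDGFRB encode receptor tyrosine kinases for platelet-derived growth factors, found on fibroblasts, theca cells, pericytes and other mesenchymal cells. ACTA2, TAGLN, CNN1 and MYL9 encode parts of the contractile apparatus, and their transcription depends on serum response factor (SRF) with its cofactors of the myocardin family, which respond to actin assembly and to transforming growth factor beta (TGF-beta). VIM encodes the intermediate filament protein of mesenchymal cells, which GCs also make. DCN and LUM encode small leucine-rich proteoglycans of the collagen matrix, and THY1 encodes a surface glycoprotein of fibroblasts and other cells. Contractile genes are also known to rise in many kinds of cells grown on plastic in serum.

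Levels are given as scaled FPKM, fragments per kilobase of transcript corrected for library depth, with each library scaled to a common median. In the deposited estimated counts, an FPKM of 1 corresponded to 48.0 to 71.3 counts per kilobase of genomic span, depending on the library. In the genes of 1 transcript that were examined, these counts followed FPKM times genomic span. They were therefore not treated as reads counted, and the factors do not measure depth. A further measure of each library was the median log2 level of genes spanning at least 68037.5 bases minus that of genes spanning at most 10217.5 bases, each gene centred on its own mean. It was 0.29, -0.062 and -0.58 in CON, 0.054, -0.12 and -0.048 in LOW, and 0.33, 0.16 and -0.084 in HIGH. CON replicate 3 and HIGH replicate 1 thus lay at the ends, and they also had the lowest median Spearman correlation with the other libraries, 0.935 and 0.937 against 0.948 to 0.958. These are called the end libraries here, and several of the larger differences are also given without both of them.

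The stromal and smooth muscle genes ranged from among the most abundant transcripts of the culture to a few FPKM. Over the 9 libraries, the mean level was 2203 for VIM, 2037 for LUM, 1853 for TAGLN, 848 for ACTA2, 282 for DCN, 169.7 for CNN1, 143 for MYL9, 37.1 for PDGFRA, 14.8 for PDGFRB and 2.97 for THY1. Among genes with a symbol and a span of at least 300 bases, VIM ranked 5 to 12 by library, LUM 8 to 14, TAGLN 8 to 17 and ACTA2 23 to 40. DCN ranked 92 to 106, CNN1 157 to 223 and MYL9 174 to 265, whereas THY1 did not come above rank 6221 in any library.

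The order was partly firm. VIM exceeded LUM in 6 of 9 libraries, LUM exceeded TAGLN in 8, and CNN1 exceeded MYL9 in 8, so the order of these neighbours was not the same in every library. Their differences were not tested. TAGLN exceeded ACTA2 and PDGFRA exceeded PDGFRB in 9 of 9 libraries although their ranges over libraries overlapped. ACTA2 against DCN, DCN against CNN1, MYL9 against PDGFRA and PDGFRB against THY1 had ranges with no overlap.

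**Figure D1:**
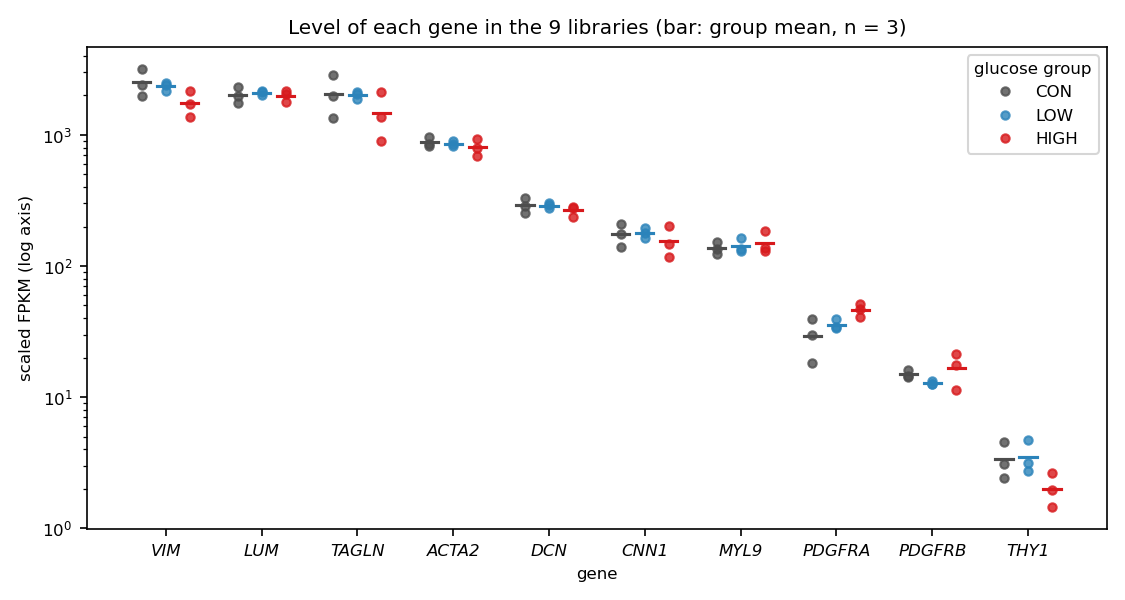
Scaled FPKM (log axis) of the 10 genes in each of the 9 libraries, coloured by glucose group, with bars at the group means (n = 3). VIM, LUM and TAGLN have the highest means (2203, 2037 and 1853), THY1 lies between 1.45 and 4.69, and the groups overlap for most genes.

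No gene of the 10 passed the test in any comparison of glucose groups. The test was limma, a linear model that borrows the spread of other genes, fitted to log2(scaled FPKM + 0.1) in all 9 libraries. A gene passed with an adjusted p-value under 0.05 over 24360 genes and an absolute log2 fold change above 1. In LOW against CON, 0 of 10 passed beside 0.00821% of all genes tested, and the lowest adjusted p-value of the 10 was 1 (limma). In HIGH against CON, 0 of 10 passed beside 0.00821% of all genes, with a lowest adjusted p-value of 0.656, and in HIGH against LOW 0 of 10 beside 0.00821%, with 0.621 (limma). At an unadjusted p-value under 0.05 the counts were 0 of 10 in LOW against CON beside 1.84% of all genes, 2 in HIGH against CON beside 6.70%, and 1 in HIGH against LOW beside 7.66%. edgeR and DESeq2 on the deposited estimated counts also called 0 of the 10 in each comparison. At an unadjusted p-value under 0.05, edgeR put 0, 2 and 0 of the 10, beside 442, 1342 and 1639 of the 24360 genes. DESeq2 put 0, 3 and 1 of the 10, beside 993, 2765 and 3096 of the 24360. Here and below, these counts equalled rescaled FPKM in the genes of 1 transcript that were examined, and other genes were not checked. Of the 10 genes, 6 have 1 transcript. For such genes both tools reread the same values, so neither is taken as an independent check.

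The median log2 fold change of the 10 genes was 0.043 in LOW against CON, where that of all genes was 0.0094. It was -0.13 in HIGH against CON beside 0.069 for all genes, and -0.11 in HIGH against LOW beside 0.057. In both comparisons with HIGH, which share the HIGH libraries, 7 of the 10 values were below 0 beside 43.8% and 44.7% of all genes. In LOW against CON 3 were below 0 beside 48.1%. Without the end libraries, the number below 0 was 3 of 10 in HIGH against CON, 5 in HIGH against LOW and 1 in LOW against CON.

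**Figure D2:**
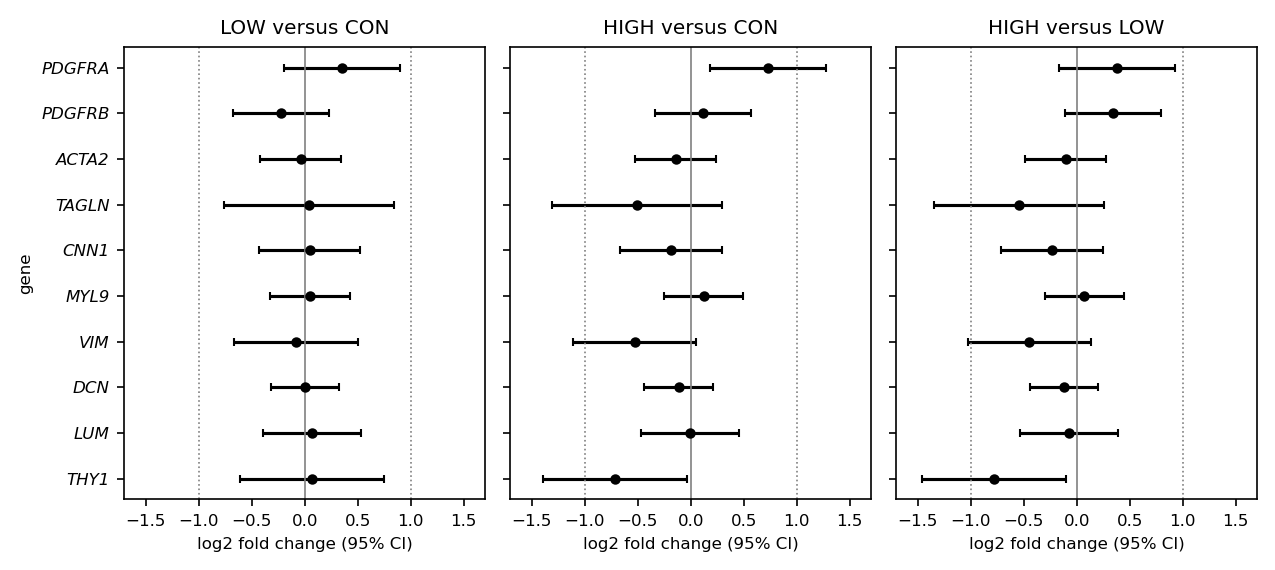
Log2 fold change of each gene in the 3 comparisons from the limma fit (n = 3 libraries per group); bars are 95% confidence intervals, and dotted lines mark a log2 fold change of 1 either way. PDGFRA lies to the right of 0 in HIGH against CON (0.73), whereas THY1 lies to the left (-0.71).

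PDGFRA, the alpha receptor, lies on chromosome 6 from 69735803 to 69772762 (coordinates here are those of the deposited files, whose genome build is not given in the sources used here). Its level was 39.6, 29.9 and 18.4 in CON, 39.1, 33.4 and 34.3 in LOW, and 51.5, 47.2 and 40.8 in HIGH. Each HIGH library was above every library of CON and LOW, and the lowest value was that of CON replicate 3. Group means were 29.3 ± 10.6 (SD, n = 3) in CON, 35.6 ± 3.06 in LOW and 46.5 ± 5.41 in HIGH. The HIGH mean corresponded to a fitted fold of 1.66 over CON (95% confidence interval 1.13 to 2.42), a log2 fold change of 0.73 (SE 0.24), with an unadjusted p-value of 0.0144 and an adjusted p-value of 0.656 (limma). It was the only gene of the 10 with no overlap between HIGH and CON, beside 9.35% of all genes. The log2 fold change was 0.43 without CON replicate 3 and 0.35 without both end libraries, where that of HIGH against LOW was 0.30 instead of 0.38.

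PDGFRB, the beta receptor, lies on chromosome 5 from 58981903 to 59017894. It measured 16.2, 14.4 and 14.2 in CON, 12.5, 13.2 and 12.5 in LOW, and 21.1, 17.5 and 11.4 in HIGH. LOW lay below CON in every library, and the HIGH libraries held both the highest and the lowest of the 9 values. No overlap between LOW and CON, in either direction, was seen for 1 of the 10 genes beside 6.28% of all genes. Means were 14.9 ± 1.09, 12.8 ± 0.417 and 16.7 ± 4.93 (SD, n = 3), and the log2 fold change of LOW against CON was -0.22 (SE 0.20, adjusted p = 1, limma). HIGH against LOW gave 0.34 with all libraries, 0.59 without HIGH replicate 3 (adjusted p = 0.193, limma) and 0.15 without HIGH replicate 1. An antisense RNA, PDGFRB-AS1, is counted within the gene and made 3.63% of its FPKM. The sources used here do not say whether counting used strand, so sense and antisense reads cannot be told apart there.

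PDGFRA exceeded PDGFRB by 1.29 times in CON replicate 3 to 3.58 times in HIGH replicate 3. The other genes of the pathway were a list of 15 ligands, receptor relatives and signal proteins, of which 14 were in the table and tested. The ligand PDGFC was the highest of them at 57.2, followed by the phosphatase PTPN11 at 27.9 and the kinase subunit PIK3R1 at 23.5. The ligands PDGFA and PDGFB were near the limit of the filter at 0.620 and 0.427, and PDGFD measured 2.22. None of the 14 passed (limma), with 0, 0 and 1 at an unadjusted p-value under 0.05 in LOW against CON, HIGH against CON and HIGH against LOW. The 1 was PDGFA, with a log2 fold change of -1.26 (SE 0.54, adjusted p = 0.636, limma) in HIGH against LOW, or -1.57 without the end libraries, and the smallest p-value in the other comparisons belonged to SPRY2, an inhibitor of receptor signalling.

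ACTA2, smooth muscle alpha actin, lies on chromosome 22 from 10372581 to 10386337. It measured 820, 859.6 and 966 in CON, 825, 898 and 849 in LOW, and 691, 799 and 922 in HIGH. The groups overlapped throughout, and the highest of 9 values was 1.40 times the lowest. Means were 882 ± 75.5, 858 ± 37.1 and 804 ± 116 (SD, n = 3), and the fold of HIGH over CON was 0.908 (95% confidence interval 0.697 to 1.18).

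TAGLN, transgelin, an actin cross-linking protein, lies on chromosome 15 from 27382416 to 27384142. It measured 1344, 1973 and 2875 in CON, 1884, 2138 and 2055 in LOW, and 906, 1381 and 2119 in HIGH. The highest value, in CON replicate 3, was 3.17 times the lowest, in HIGH replicate 1, and CON alone spanned most of that range. Means were 2064 ± 770 in CON, 2026 ± 130 in LOW and 1469 ± 611 in HIGH (SD, n = 3). HIGH against CON gave a log2 fold change of -0.51 (SE 0.36, adjusted p = 0.656, limma), which was 0.071 without CON replicate 3 and HIGH replicate 1. Its 2 transcripts, TAGLN-201 and the assembled TCONS_00082380, kept nearly fixed shares of 64.2% and 35.8%, the latter between 34.8 and 37.6% in each library.

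CNN1, calponin, lies on chromosome 5 from 13552884 to 13560118 and measured 141, 176 and 208 in CON, 163, 193 and 179.8 in LOW, and 118, 147 and 202 in HIGH. Its lowest and highest libraries were the same as those of TAGLN, with means of 175 ± 33.5, 179 ± 14.9 and 156 ± 42.4 (SD, n = 3). MYL9, a regulatory light chain of myosin, lies on chromosome 13 from 65216632 to 65221569 and measured 124, 135 and 152 in CON, 129, 162 and 135 in LOW, and 129.7, 138 and 184 in HIGH. Unlike ACTA2, TAGLN and CNN1, it had a HIGH mean above those of the other groups, as did ACTN1 and other contractile genes below. The MYL9 means were 150.3 ± 29.1 in HIGH against 137 ± 14.1 in CON and 142 ± 17.6 in LOW (SD, n = 3). The HIGH mean fell within the spread of each group, and the log2 fold change of HIGH against CON was -0.031 without HIGH replicate 3.

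Of 30 further contractile genes, 28 were in the table and 27 were tested. TPM1, a tropomyosin, had a mean level of 831, FLNA, a filamin that links actin filaments, 370, and CALD1, caldesmon, 311, so the 4 contractile genes above stood among many abundant ones. MYH11, the myosin heavy chain of differentiated smooth muscle, was lower, between 2.06 and 11.1 by library, and DES, its intermediate filament protein, was at 18.2. In HIGH against CON, 12 of the 27 log2 fold changes were below 0 beside 43.8% of all genes, among them TPM1 with -0.39. In HIGH against LOW, 12 were below 0 beside 44.7%. None of the 27 passed in any comparison (limma), and 0, 6 and 5 had an unadjusted p-value under 0.05. ACTN1, an actinin, had the smallest in HIGH against CON, with a log2 fold change of 1.11 (SE 0.40, adjusted p = 0.656, limma). Its level was 118 in HIGH replicate 1 and 19.3 in CON replicate 3, and without these libraries the log2 fold change was 0.36. ACTN4, a related actinin, had the smallest in HIGH against LOW with 0.56 (SE 0.15, adjusted p = 0.599, limma), or 0.42 without the end libraries.

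The regulators upstream of contractile genes were a list of 24 genes around SRF, its cofactors and TGF-beta, of which 23 were in the table and tested. Myocardin itself, MYOCD, was listed at 0.394, SRF at 5.29, MRTFA at 1.66 and MRTFB at 5.03. The highest members were THBS1, a matrix protein that activates latent TGF-beta, at 1454, CCN2, a matrix protein induced by TGF-beta, at 507 and ANKRD1, a target of YAP signalling, at 332. None passed (limma), with 2, 6 and 5 at an unadjusted p-value under 0.05. LTBP2, a binding protein of the matrix, had the smallest p-value in all 3 comparisons, and its log2 fold change was 1.03 (SE 0.13, adjusted p = 0.143, limma) in HIGH against LOW, or 0.94 without the end libraries. LTBP2 measured 7.65, 8.80 and 7.87 in CON, 5.98, 7.02 and 6.45 in LOW, and 15.0, 12.2 and 12.9 in HIGH, with no overlap between any of the groups. In HIGH against LOW, DESeq2 on the estimated counts called 5 genes of all lists, beside 337 of all 24360 genes tested. LTBP2 was 1 of the 5 (adjusted p = 4.15e-14, DESeq2). The estimated counts were not treated as reads counted, since they followed FPKM times genomic span in the genes of 1 transcript examined. A model for counts can therefore misstate their noise, and this p-value is not taken as an independent check of the limma result.

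VIM, vimentin, lies on chromosome 13 from 30747289 to 30755046. It measured 1985, 2394 and 3187 in CON, 2165, 2468 and 2396 in LOW, and 1372, 1712 and 2152 in HIGH. Each HIGH library was below every LOW library, and HIGH overlapped CON by 1 library, CON replicate 1. Means were 2522 ± 611, 2343 ± 158 and 1746 ± 391 (SD, n = 3). HIGH against CON gave a log2 fold change of -0.53 (SE 0.26, 95% confidence interval -1.11 to 0.054, unadjusted p-value 0.0706, adjusted p-value 0.656, limma), and HIGH against LOW gave -0.45 (SE 0.26, adjusted p = 0.636, limma). Without the end libraries these were -0.18 and -0.29. An exact permutation test over all 280 divisions into groups of 3 gave p = 0.107 for the scaled level and 0.0107 for FPKM as deposited, and the smallest p this design allows is 0.00357.

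The gene value of VIM sums 3 transcripts. VIM-201 made 78.5% of it, the assembled TCONS_00060932 made 13.5%, and the antisense RNA VIM-AS1 made 7.96%. By library these shares ran from 73.8 to 88.6%, 6.54 to 18.1% and 4.86 to 9.58%. The means in CON were 1949, 376 and 196, and those in HIGH were 1432, 189 and 124. Part of the gene-level difference therefore lay in the 2 shorter transcripts. The assembled and antisense transcripts lie over nearly the same bases, from 30747289 to 30748190 and from 30747300 to 30748189, so their shares are uncertain without strand. VIM-201 alone measured 1657, 1841 and 2350.5 in CON, 1712, 1878 and 1835 in LOW, and 1216, 1423 and 1656 in HIGH. All 3 transcripts were lowest in HIGH replicate 1 and highest in CON replicate 3.

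**Figure D3:**
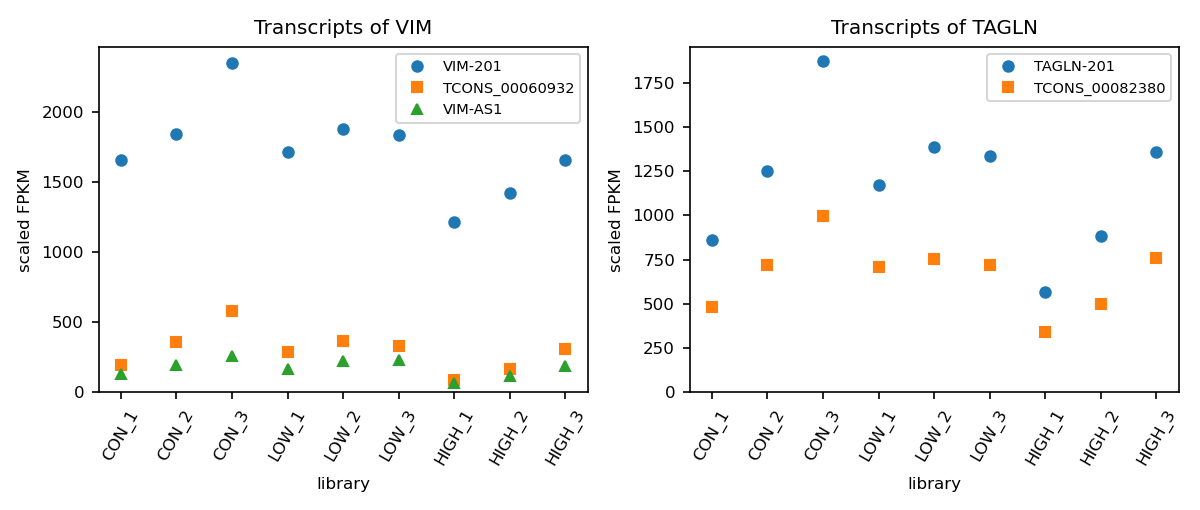
Scaled FPKM of the transcripts of VIM (left) and TAGLN (right) in each of the 9 libraries, 1 point per library. The transcripts of a gene rise and fall together, with the lowest values in HIGH replicate 1 and the highest in CON replicate 3.

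The related filament list held 10 genes, of which 7 were in the table and 5 were tested. LMNA, nuclear lamin, was at 70.1, DES at 18.2 and NES, nestin, at 13.1, while KRT8, a keratin of simple epithelium, was at 11.1. None passed (limma), with 0, 2 and 3 at an unadjusted p-value under 0.05, led by PLEC, a linker of filaments, at a log2 fold change of 1.21 (SE 0.30, adjusted p = 0.599, limma) in HIGH against LOW, or 0.88 without the end libraries.

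DCN, decorin, lies on chromosome 3 from 127427409 to 127458485 and measured 254, 287 and 328 in CON, 275, 301 and 291 in LOW, and 238, 279 and 284 in HIGH. LUM, lumican, lies on the same chromosome from 127384837 to 127388852 and measured 1742, 1982 and 2323 in CON, 2019, 2160.2 and 2114 in LOW, and 1776, 2052 and 2163 in HIGH. In both genes the groups overlapped and CON held the highest library. DCN averaged 289.7 ± 37.3, 289.0 ± 13.0 and 267 ± 25.2, and LUM 2016 ± 292, 2098 ± 72.2 and 1997 ± 199 (SD, n = 3). The fold of LOW over CON for DCN was 1.00 (95% confidence interval 0.801 to 1.25), and that of HIGH over CON for LUM was 0.994 (0.722 to 1.37).

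DCN and LUM are neighbours, with 38556 bases between them, and the sheep RefSeq annotation places KERA, another proteoglycan gene, on the far side of LUM. KERA was listed at a mean of 0.156, the level of LUM being 2037. Of the 45 pairs among the 10 genes, DCN and LUM had the most similar pattern over the 9 libraries, with a root-mean-square difference of 0.047 on the log2 scale after centring, and PDGFRA and TAGLN the least similar, with 0.83. The ratio of LUM to DCN, which does not depend on the scaling of a library, was 6.86, 6.92 and 7.07 in CON, 7.34, 7.18 and 7.26 in LOW, and 7.46, 7.35 and 7.61 in HIGH. The 3 groups did not overlap in this ratio, although their means differed by little, 6.95, 7.26 and 7.48. The same held for 2 of the 45 pairs beside 0.640% of the pairs of 11030 genes with a symbol, the other being CNN1 to VIM, with ratios of 0.0652 to 0.0735 over CON, 0.0751 to 0.0783 over LOW and 0.0859 to 0.0936 over HIGH. HIGH lay apart from both other groups in 12 of the 45 ratios beside 6.20% of those of all pairs, and all of these except CNN1 to MYL9 and LUM to DCN involved VIM or THY1. Ratios that share a gene are not independent, and these were singled out after their values were seen and were given no test.

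The other small leucine-rich proteoglycans were far lower than LUM. Of 12 listed, all 12 were in the table and 9 were tested, with ASPN, asporin, at 82.4, BGN, biglycan, at 4.94 and ECM2 at 4.88. None passed (limma), and 0, 0 and 0 had an unadjusted p-value under 0.05.

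THY1 lies on chromosome 15 from 29450455 to 29452173. It measured 2.43, 4.57 and 3.11 in CON, 2.74, 4.69 and 3.13 in LOW, and 1.45, 1.95 and 2.63 in HIGH. Each HIGH library was below every LOW library, and HIGH replicate 3 overlapped CON. Means were 3.37 ± 1.09, 3.52 ± 1.03 and 2.01 ± 0.594 (SD, n = 3). The fold of HIGH over CON was 0.611 (95% confidence interval 0.382 to 0.977, adjusted p = 0.656, limma), and that of HIGH over LOW was 0.582 (0.364 to 0.931, adjusted p = 0.621, limma). As log2 fold changes these were -0.71 and -0.78, and without the end libraries -0.54 and -0.58. PDGFRA, VIM and THY1 were the 3 of 10 genes with no overlap between HIGH and LOW, beside 18.9% of all genes. Over all 3 groups, the exact permutation test gave 0 of 10 genes a p-value under 0.05 beside 5.75% of all genes, with the lowest at 0.0857 for PDGFRA.

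Fibroblast and ovarian stroma genes outside the 10 were a list of 33, of which 28 were in the table and tested. SPARC, a matrix glycoprotein, was at 2418, and the collagen genes COL3A1 and COL1A2 were at 367 and 174. None passed (limma), with 0, 4 and 7 at an unadjusted p-value under 0.05. In HIGH against CON, 13 of the 28 log2 fold changes were below 0, beside 43.8% of all genes, and their median was 0.11. COL1A1, a chain of type I collagen, measured 31.3, 28.2 and 16.3 in CON, 27.7, 23.6 and 24.5 in LOW, and 124, 72.1 and 38.8 in HIGH. Each HIGH library was above every other library, and 9.35% of all genes had no overlap between HIGH and CON in either direction. The log2 fold change of COL1A1 in HIGH against CON was 1.53 (SE 0.38, adjusted p = 0.656, limma). Its highest value was in HIGH replicate 1 and its lowest in CON replicate 3, and without both the log2 fold change was 0.83.

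**Figure D4:**
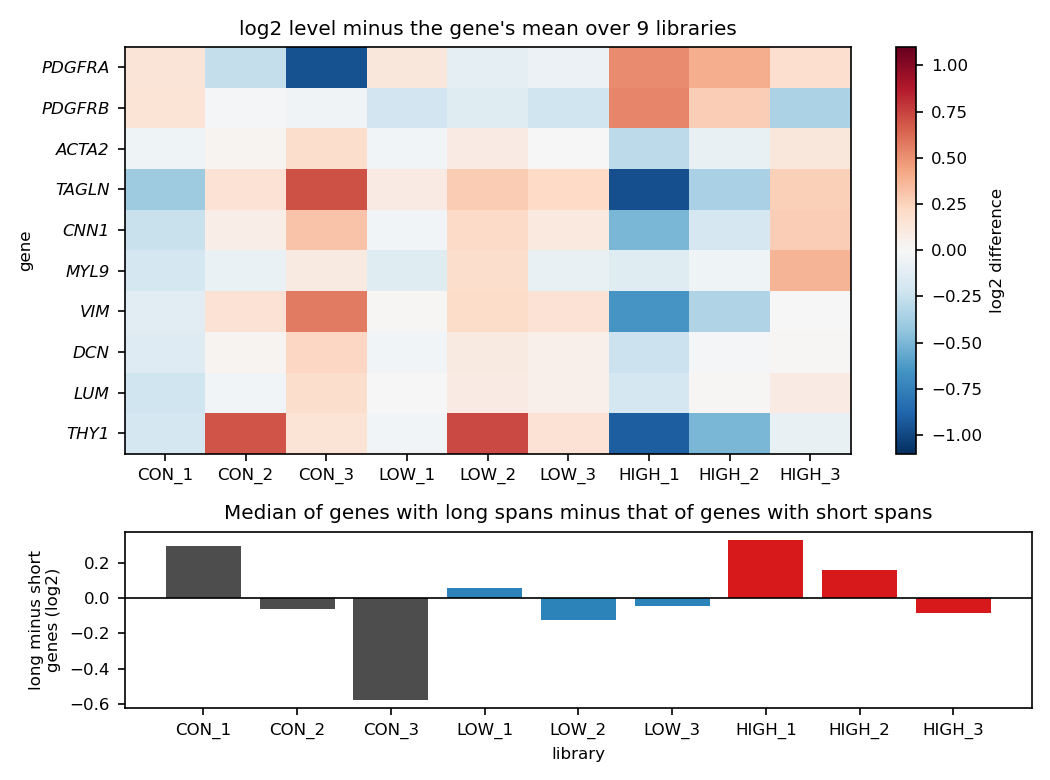
Upper panel, log2 level of each of the 10 genes minus its own mean over 9 libraries, as a colour per library; lower panel, median log2 level of genes with long spans minus that of genes with short spans in each library. TAGLN, CNN1 and VIM are lowest in HIGH replicate 1 and highest in CON replicate 3, which also take the ends of the lower panel (0.33 and -0.58).

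Much of the variation lay between libraries of a group. HIGH replicate 1 held the lowest value of 6 of the 10 genes beside 19% of all genes tested, and CON replicate 3 held the highest of 6 beside 24.2%. PDGFRA went the other way, with its lowest value in CON replicate 3 and its highest in HIGH replicate 1. The part of the difference between long and short genes in these values was not tested beyond a fit with that measure as a covariate. In that fit, HIGH against CON gave log2 fold changes of 0.43 for PDGFRA, -0.29 for VIM, -0.12 for TAGLN and -0.53 for THY1. Their adjusted p-values were 0.201, 0.407, 0.856 and 0.623 (limma). The median coefficient of variation of the 10 genes was 16.8% in CON, 6.59% in LOW and 20.9% in HIGH. The share of the variance of the log2 level that lay between groups was 52.7% for PDGFRA, 51.9% for THY1 and 50.9% for VIM and 7.05% for LUM, and its median over the 10 genes was 24.5% beside 24.0% for all genes.

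Genes with the most similar pattern to each of the 10 were sought among 11353 genes with a symbol, by the root-mean-square difference of centred log2 levels over the 9 libraries. The closest were SLC2A3, a glucose transporter, for PDGFRA (0.086), BMP4, a growth factor, for LUM (0.023), SPARC for DCN (0.030), IGFBP2, a binding protein of insulin-like growth factors, for TAGLN (0.039), DDHD2, a lipase, for ACTA2 (0.027) and CDC45, a replication factor, for CNN1 (0.044). VIM was closest to TRAPPC5 (0.039), MYL9 to PHF1 (0.060) and PDGFRB to CYREN (0.083). THY1 was closest to RPP21 (0.20). The difference grows with the spread of a gene, whose SD on the log2 scale was 0.52 for THY1, 0.28 for PDGFRB and 0.18 for MYL9.

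Markers of the cell types that the culture could hold were read beside these levels, since in bulk RNA fewer cells of a type and less RNA per cell cannot be told apart. Of 18 granulosa markers, 14 were in the table. CDH2, N-cadherin, was at 146, SERPINE2, a protease inhibitor, at 56.4, GJA1, the gap junction protein connexin 43, at 50.8 and INHA, the inhibin alpha subunit, at 12.9. The receptor of follicle-stimulating hormone, FSHR, was between 0.229 and 0.586 and the oestrogen enzyme HSD17B1 had a mean of 0.393. FOXL2, CYP19A1, AMH and INHBB were not analysed here. The summed level of the granulosa list spanned 308 to 343 over the CON libraries, 304 to 325 over LOW and 291 to 325 over HIGH. CDH2, SERPINE2 and GJA1 made most of this sum, which hides genes that moved in opposite directions. INHA had a log2 fold change of -0.56 (SE 0.22, adjusted p = 0.656, limma) in HIGH against CON. GATA4 had 0.69 (SE 0.26, adjusted p = 0.620, limma) in HIGH against LOW. INHA was lowest and GATA4 highest in HIGH replicate 1, and the reverse held in CON replicate 3.

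Of 9 theca markers, 8 were in the table. CYP11A1, the enzyme that starts steroid synthesis and is shared with GCs, was at 162, STAR, a cholesterol carrier, at 6.02 and HSD3B1, a steroid dehydrogenase, at 3.30. The defining theca genes CYP17A1 and INSL3 were at 0.249 and 0.022. The theca sum spanned 175 to 221 over the CON libraries, 172 to 184 over LOW and 149.7 to 158 over HIGH. CYP11A1 made most of this sum, which therefore says little of the defining theca genes. STAR had a log2 fold change of -0.58 (SE 0.17, adjusted p = 0.656, limma) in HIGH against CON, or -0.47 without the end libraries. Of 9 pericyte markers, 7 were in the table, with CSPG4 at 16.5, NDUFA4L2 at 10.2, COX4I2 at 1.10 and RGS5 at 0.084. Their sum spanned 24.3 to 30.7 over CON, 22.2 to 28.7 over LOW and 30.1 to 34.2 over HIGH. CSPG4 and NDUFA4L2 made most of this sum, with means of 17.2 and 8.60 in CON and 17.9 and 13.0 in HIGH. The means of RGS5, KCNJ8 and ABCC9 were lower in HIGH than in CON, 0.043, 0.0079 and 0.33 against 0.082, 0.050 and 0.38. COX4I2 averaged 1.02 in both groups, and HIGD1B was 0 in both.

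Endothelial markers were near 0, with 9 of 10 in the table, CDH5 and EMCN at 0 in all libraries, FLT1 the highest at 1.04, TEK at 0.710 and TIE1 at 0.500. Their sum spanned 2.05 to 3.03 over CON, 2.01 to 2.27 over LOW and 2.17 to 2.80 over HIGH. Leukocyte markers, 11 of 11 in the table, were led by CD68 at 10.1, CD14 at 6.79 and LYZ at 0.841, while PTPRC, the common leukocyte antigen, was at 0.184. Their sum spanned 17.7 to 23.9 over CON, 18.95 to 21.8 over LOW and 16.5 to 19.1 over HIGH. Surface epithelium markers, 6 of 9 in the table, were led by UPK1B at 34.0, CDH1 at 2.79 and UPK3B at 0.296, and summed to 32.2 to 53.4 over CON, 36.8 to 41.1 over LOW and 26.5 to 36.8 over HIGH. Oocyte markers, 5 of 9 in the table, summed to at most 1.17, with GDF9 the highest at 0.659, DDX4 at 0.178 and ZP2 at 0.012. ZP4 and BMP15 were at 0 throughout. The red blood cell markers in the table, 2 of 5, were AHSP at 0.127 and ALAS2 at 0.

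Of the 169 genes on all lists that were in the table, 147 were tested, and 0 passed in any comparison (limma). At an unadjusted p-value under 0.05 were 3 in LOW against CON (2.04% beside 1.84% of all genes), 25 in HIGH against CON (17.0% beside 6.70%) and 26 in HIGH against LOW (17.7% beside 7.66%), and the counts of single lists above are to be read beside the same shares of all genes. Without the end libraries the shares were 4.08, 6.12 and 17.7% beside 4.24, 3.65 and 6.36% of all genes. edgeR on the estimated counts also called 0. DESeq2 called 0 of them in LOW against CON, beside 163 of the 24360 genes tested. It called 5 in each comparison with HIGH, beside 175 of the 24360 against CON and 337 against LOW. COL1A1, PLEC, NDUFA4L2 and AIF1 were called in both, with MYOCD in HIGH against CON and LTBP2 in HIGH against LOW. AIF1, a leukocyte gene whose level did not exceed 1.54 in any library, had a log2 fold change of -3.03 against CON with DESeq2 and -1.26 with limma. For MYOCD the values were 1.20 with DESeq2 and 0.17 with limma, and its highest library was CON replicate 1. The other genes called were higher in HIGH by both tools. Whether the marker levels of other cell types had a part in the levels of the 10 genes was not tested.

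**Figure D5:**
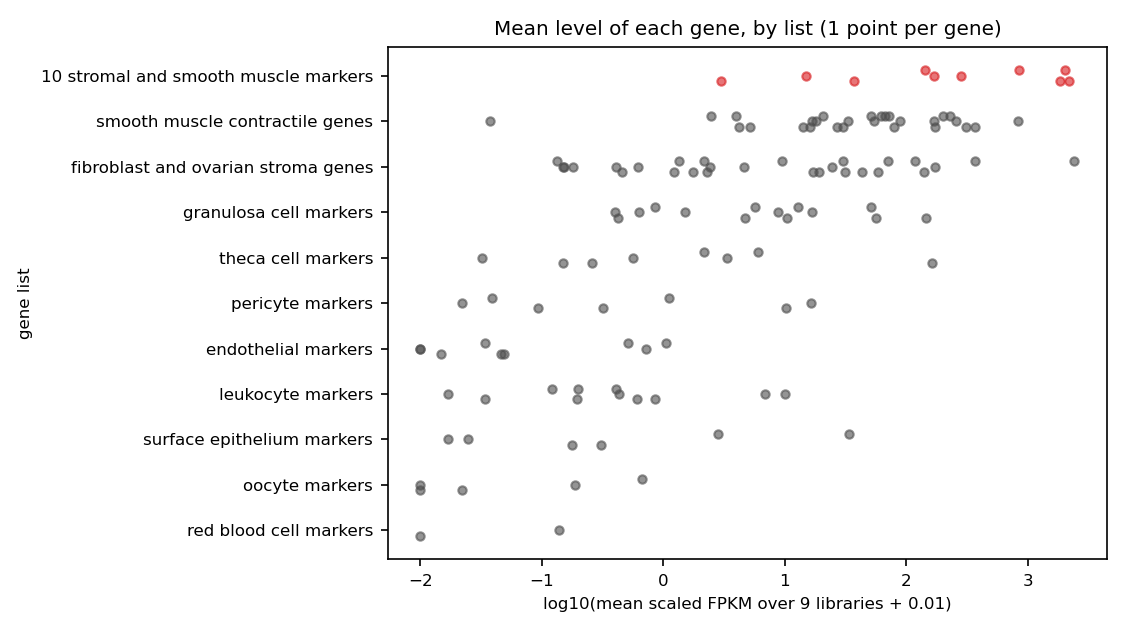
Mean level over 9 libraries of each gene in the table, 1 point per gene, by list, as log10(scaled FPKM + 0.01), with the 10 stromal and smooth muscle genes in red. Of the 10, VIM, LUM and TAGLN lie above 3 on this axis, whereas the endothelial, oocyte and red blood cell markers lie at or below about 0.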

How the data were processed

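Reads of total RNA from 9 libraries were filtered, aligned and assembled by the authors, who deposited FPKM per gene and per transcript. The labels name HTSeq 0.6.0 and STAR 2.5.1b among several tools, and the genome build is not given in the sources used here. The authors also deposited a table of estimated counts per gene. Its values equalled FPKM times genomic span times 1 factor per library within 3 percent in 100% of the 6631 to 7592 genes of 1 transcript examined per library. The table was therefore not treated as reads counted, although genes of several transcripts were not examined in this way. The factors (48.0 to 71.3 estimated counts per kilobase of genomic span at an FPKM of 1) were not taken as depth.

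Libraries were brought to a common median over genes that reached FPKM 1 in all 9 of them (factors 0.933 to 1.12). Ensembl genes without a symbol were scaled as a class of their own. Genes that reached FPKM 0.1 in 3 libraries or more and spanned 300 bases or more were tested with limma 3.58.1 (R 4.3.3), with a trend, Benjamini-Hochberg adjustment over 24360 genes and a pseudocount of 0.1, so folds of low genes are understated. Single genes were also compared over 3 groups by an exact permutation test of 280 groupings (an exact test of 3 against 3 libraries cannot go below 0.1). In simulated data for HIGH against CON, 200 genes among 24360 tested were changed 4-fold. The limma fit recovered 174 of them and made 6 other calls, and with nothing changed it called 0. The fitted folds of the stromal and smooth muscle genes in HIGH over CON were smaller, from 0.611 (THY1) to 1.66 (PDGFRA). Recovery of changes of that size was therefore not measured. No conclusion on power or false calls in the measured libraries is drawn from the simulation.

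The 10 genes and all lists were chosen with earlier results of these data known. Named are the 10 genes, the 3 most abundant genes of each list, the genes with the smallest p-value of a comparison, the called genes, the nearest patterns and transcripts above 10 percent of a gene. Defining markers and genes of the pathway named beyond that rule were picked after their values were seen, and not every gene under the rule is printed. RefSeq (ARS-UI_Ramb_v3.0) matched all 10 genes and gave neighbours only. Planned promoter and protein comparisons are not made here. Alternatives were FPKM as deposited, a pseudocount of 1, no filter, a minimum FPKM of 1 in 3 libraries, a fit of the compared groups alone, a block for the replicate number, edgeR 4.0.16 and DESeq2 1.42.0 on the rounded estimated counts, the most abundant transcript, and each library left out. A fit without CON replicate 3 and HIGH replicate 1 and a fit with the long against short gene measure as a covariate were added after seeing the data, also for the genes of the lists.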

Additional observations from a re-analysis of the deposited data

How the results depend on the processing

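No gene of the 10 was called under any alternative. Of 330 log2 fold changes of the 10 genes under alternatives other than 1 library left out, 26 changed sign, and the causes were not tested. With FPKM as deposited, the median log2 fold change of all genes was -0.089 in LOW against CON and 0.11 in HIGH against LOW. LOW against CON then gave TAGLN -0.068, CNN1 -0.060, MYL9 -0.058, DCN -0.10, LUM -0.041 and THY1 -0.034, HIGH against LOW gave LUM 0.0037, and the exact permutation test put 1 gene, VIM, under 0.05. LOW against CON gave TAGLN -0.044 and DCN -0.0089 with edgeR, and TAGLN -0.054 and DCN -0.022 with DESeq2. Without CON replicate 3 and HIGH replicate 1, LOW against CON gave ACTA2 0.030 and VIM 0.10, HIGH against CON gave PDGFRB -0.11, ACTA2 0.032, TAGLN 0.071, CNN1 0.13, DCN 0.061 and LUM 0.18, and HIGH against LOW gave ACTA2 0.0019 and LUM 0.0067. With the long against short gene covariate, HIGH against CON gave PDGFRB -0.018, CNN1 0.033, DCN 0.0014 and LUM 0.12, and HIGH against LOW gave LUM 0.014.

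The number of genes called was 2, 2 and 2 in LOW against CON, HIGH against CON and HIGH against LOW. It was 163, 175 and 337 with DESeq2, of which 5 and 5 were on the lists in the comparisons with HIGH. It was 8, 8 and 6 without CON replicate 3 and HIGH replicate 1, and 4, 6 and 4 with the covariate. With FPKM of 1 or more in 3 libraries it was 1 in LOW against CON and 1 in HIGH against LOW, and with only the groups compared 1 in HIGH against CON and 6 in HIGH against LOW. With the replicate number as a block it was 4, 4 and 2, and the lowest adjusted p-value of the 10 genes was 0.269 in HIGH against CON and 0.229 in HIGH against LOW (limma). At an unadjusted p-value under 0.05 this fit put 4 of the 10 genes in HIGH against CON, beside 3607 of all genes (1631 without the block). In HIGH against LOW it put 3 of the 10, beside 3855 (1867 without the block). Same-numbered libraries deviated together with correlations from -0.027 to 0.417, not over 0.1 in every pair, so the numbers were not taken as pairs. Pairing was not excluded by this, since CON replicate 1 with HIGH replicate 3 gave -0.433 and CON replicate 3 with HIGH replicate 1 gave -0.407. CON replicate 1 correlated best with LOW replicate 1 (0.251) and HIGH replicate 1 (0.408) and CON replicate 3 with HIGH replicate 3 (0.417), whereas CON replicate 2 did not correlate best with the number 2 in either other group.

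With 1 library left out, genes called ranged from 2 to 5 in LOW against CON (5 without CON replicate 3 or LOW replicate 2), from 2 to 8 in HIGH against CON (8 without CON replicate 3) and from 2 to 5 in HIGH against LOW (5 without CON replicate 1), and the 10 genes gave 0 calls each time. The log2 fold change of PDGFRA in HIGH against CON ranged from 0.43 to 0.98. Changes of sign came in LOW against CON for ACTA2 (-0.088 to 0.030), TAGLN (-0.24 to 0.31), CNN1 (-0.0996 to 0.18), MYL9 (-0.049 to 0.13), VIM (-0.24 to 0.10), DCN (-0.087 to 0.098), LUM (-0.033 to 0.17) and THY1 (-0.15 to 0.31). They came in HIGH against CON for PDGFRB (-0.077 to 0.37), MYL9 (-0.031 to 0.22) and LUM (-0.11 to 0.099), and in HIGH against LOW for ACTA2 (-0.21 to 0.0019), MYL9 (-0.081 to 0.17) and LUM (-0.14 to 0.0067). Summing several entries of a symbol did not apply, since each gene had 1. With 3 libraries a group, differences smaller than the intervals given could not be seen.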
